A study of Mus musculus with 2 samples.

Results

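Genes that define dendritic cells and their subsets were examined in maps of open chromatin from mouse spleen. The genes were Zbtb46, Tcf4, Id2, Nfil3, Flt3, Itgax, Siglech and Clec9a, 8 of the 21938 protein-coding genes on chromosomes 1 to 19, X and Y, and all 8 were found in the mm10 annotation (GENCODE M21). For each gene, every DNase peak and footprint in the gene body and 30 kb either side was taken. The data were DNase-seq, in which nuclei are cut with DNase I and the cut ends are sequenced, so that open chromatin appears as peaks of cuts. The tissue was whole spleen of 14-day-old B6CASTF1/J males, an F1 hybrid that carries 1 C57BL/6J and 1 CAST/EiJ genome. There was 1 group of 2 libraries, with no treatment and no comparison between conditions. Material from 3 males went into replicate 1 and from 1 male into replicate 2, per the labels, and both carry the same donor entry.

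The authors deposited a pair of peak lists per library. The one covering fewer bases is called strict here, the other larger. Strict peaks numbered 48286 in replicate 1 and 28837 in replicate 2, covering 9.46 and 5.72 Mb, and the median signal of a strict peak was 1.49 and 1.79. Signal is the authors' own value for each peak, on a scale that neither the labels nor the files state. Depth is unknown, and counting error cannot be given. Whole tissue was used, so a site that is open in few cells and one that is weakly open in many cells cannot be told apart. With 2 libraries of 1 group, each value is given for replicate 1 and replicate 2, and the SD describes only the spread between them. The labels do not say whether the libraries share animals, so the n of 2 may not stand for independent animals.

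Dendritic cells take up antigen and present it to T cells. In the mouse spleen they comprise conventional type 1 cells, which cross-present antigen to CD8 T cells, conventional type 2 cells, which act mainly on CD4 T cells, and plasmacytoid cells, which make type I interferon. The balance between E proteins and their inhibitors is a known switch between these fates. Tcf4 encodes the E protein E2-2, which drives the plasmacytoid fate. Id2 encodes an inhibitor that binds E proteins and keeps them off DNA, and it is needed for conventional type 1 cells. Nfil3 encodes a basic leucine zipper factor that acts upstream of the type 1 fate and of innate lymphoid cells. Zbtb46 encodes a zinc finger factor of conventional dendritic cells and their committed precursors, known also from endothelium and early red cell precursors. Flt3 encodes the receptor tyrosine kinase for Flt3 ligand, the growth factor of the dendritic lineage. The other members are surface proteins: Itgax is the integrin chain CD11c, Siglech a sialic acid binding lectin of mouse plasmacytoid cells, and Clec9a the lectin DNGR-1, by which type 1 cells sense dead cells.

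The first question was whether the promoters of these genes were open. A promoter peak was a strict peak with at least 1 base within 1000 bases of any annotated start site of the gene. The 4 transcription factor genes and Flt3 had a promoter peak in both libraries, and the 3 surface marker genes Itgax, Siglech and Clec9a had none in either. This made 5 of 8 members (62.5%), beside 11220 of 21938 protein-coding genes (51.1%), so the share of members was close to that of all genes. For description, the 5 open promoters were divided by these same signals into a higher and a lower set, so their separation is no result. Id2, Tcf4 and Zbtb46 lay between 5.95 and 9.22 in replicate 1 and between 4.60 and 5.02 in replicate 2. Nfil3 and Flt3 lay between 1.62 and 1.65 in replicate 1 and between 0.895 and 1.29 in replicate 2. The median of all protein-coding genes with a promoter peak was 7.03 in replicate 1 and 4.79 in replicate 2, so even the higher set stood near the middle of open promoters. When the strongest 50% of strict peaks of each library were kept, the promoters of Zbtb46, Tcf4 and Id2 were still called in both. Those of Flt3 and Nfil3 were not. That filter ranks the same signals and is no separate evidence for the division.

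**Figure D1:**
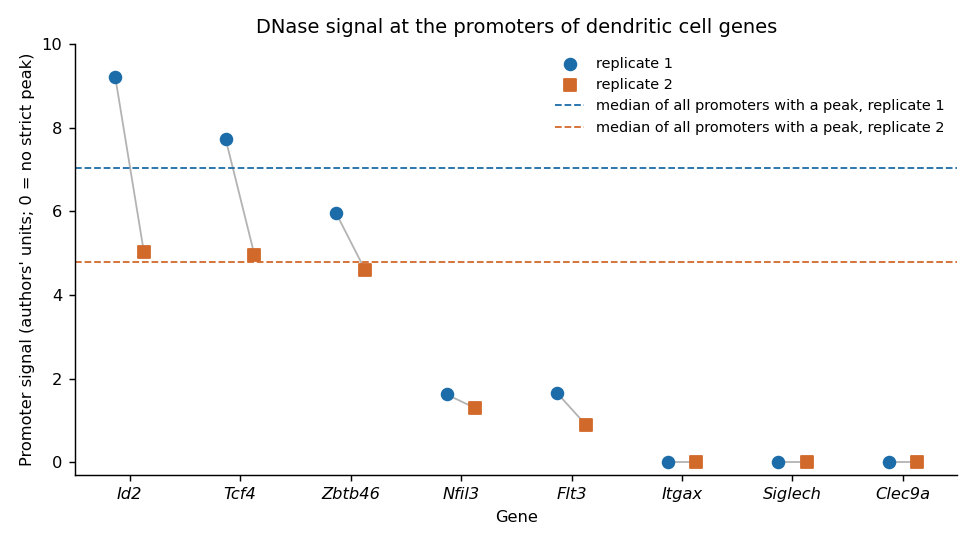
Signal of the strongest strict peak within 1000 bases of a start site of each gene (y axis, authors' units, 0 where there is no strict peak). Circles are replicate 1, squares replicate 2, and dashed lines the medians of all protein-coding genes with a promoter peak (7.03 and 4.79). Id2, Tcf4 and Zbtb46 stand near the medians, Nfil3 and Flt3 below 2, and Itgax, Siglech and Clec9a at 0.

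Tcf4, the E protein gene of plasmacytoid cells, is the longest member (346 kb, chromosome 18, 69343356 to 69689079, plus strand) and has 58 annotated start sites. Its strongest peak lay over start sites near the 5′ end, at 69344281 to 69344520. The signal there was 7.72 in replicate 1 and 4.96 in replicate 2 (6.34 ± 1.95, SD, n = 2), at percentiles 53.8 and 51.5 of promoters with a peak. A start site deep inside the gene was open as well. That peak, at 69593261 to 69593460, had signals of 4.99 in replicate 1 and 3.38 in replicate 2 (4.18 ± 1.14, SD, n = 2). Shorter transcripts of the gene begin there in the annotation. The gene had 4 more promoter sites in replicate 1 alone, with signals between 0.697 and 1.04, and 3 of these 4 were in the larger list of replicate 2. Of its 8 distal sites, all in introns, 2 were called in both libraries. The site at 69507901 to 69508060 had 1.72 in replicate 1 and 1.76 in replicate 2, and the site at 69537501 to 69537680 had 1.25 in replicate 1 and 0.838 in replicate 2. The other 6 distal sites, called in replicate 1 alone, had signals between 0.688 and 1.23.

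Id2, the inhibitor of E proteins, is a gene of 3.34 kb (chr12:25093799-25097140, minus strand) and had the strongest promoter of the members. The peak at chr12:25096041-25096300, over an annotated start site and an exon, had a signal of 9.22 in replicate 1 and 5.02 in replicate 2 (7.12 ± 2.97, SD, n = 2). These were percentiles 61.0 and 52.0 of promoters with a peak. Its flanks held a distal site on each side. The downstream site at chr12:25092341-25092540 had 2.43 in replicate 1 and 2.56 in replicate 2 (2.50 ± 0.0905, SD, n = 2). The upstream site at chr12:25098821-25099040 had 2.75 in replicate 1 and 1.39 in replicate 2 (2.07 ± 0.963, SD, n = 2). Both lay between genes, 3547 and 1681 bases from the nearest start site of Id2, and no strict distal site of the gene was called in only 1 library. The libraries were close at the downstream site and apart at the upstream one.

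Zbtb46, the conventional dendritic cell factor (chr2:181387762-181459426, minus strand), had its main peak at chr2:181459381-181459600, over the most 5′ start site. Its signal was 5.95 in replicate 1 and 4.60 in replicate 2 (5.28 ± 0.953, SD, n = 2). A second promoter site lay 595 bases upstream of the start site, at chr2:181460021-181460405, with 2.17 in replicate 1 and 1.29 in replicate 2 (1.73 ± 0.623, SD, n = 2). This second site held 2 footprints in replicate 1 and 7 in replicate 2. A footprint is a short stretch protected from cutting inside an open site, as called by the authors. A further pair of promoter sites, at 0.671 and 0.839, were called in replicate 1 alone.

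Nfil3, the leucine zipper factor (chr13:52967209-52981073, minus strand), and Flt3, the growth factor receptor (chr5:147330741-147400489, minus strand), had weak promoter peaks. The promoter site of Nfil3, joined from the peaks of both libraries, spanned 486 bases at chr13:52980955-52981440. Its signal was 1.62 in replicate 1 and 1.29 in replicate 2 (1.46 ± 0.231, SD, n = 2), at percentiles 14.9 and 8.95 of promoters with a peak. Replicate 2 had 2 strict peaks within this stretch and replicate 1 had 1. In replicate 2 the footprint at chr13:52981064-52981074, over the start site, lay in no peak, so the whole stretch was not called there. A smaller promoter site in an intron, at chr13:52980598-52980654, was called in replicate 1 alone with a signal of 0.629. The promoter peak of Flt3 at chr5:147400261-147400480 had 1.65 in replicate 1 and 0.895 in replicate 2 (1.27 ± 0.537, SD, n = 2), at percentiles 15.2 and 3.54. A start site of Gm26597 was less than 1000 bases away, and a peak near start sites of 2 genes cannot be assigned to one of them. At Nfil3 the site upstream of the gene was stronger than the promoter in both libraries. That site, at chr13:52982921-52983080, had 3.20 in replicate 1 and 2.35 in replicate 2 (2.77 ± 0.599, SD, n = 2).

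The surface marker genes had no strict promoter peak. Itgax, the CD11c gene (chr7:128129547-128150657, plus strand), had a promoter peak only in the larger list of replicate 1, at chr7:128133691-128133900 with a signal of 0.713. Siglech, the plasmacytoid lectin gene (chr7:55768178-55778925, plus strand), likewise had one in the larger list of replicate 1, at chr7:55768104-55768200 with 0.571. Clec9a, the lectin gene of type 1 cells (chr6:129408862-129424763, plus strand), had none in either list of either library. The lowest deposited false discovery rate at these promoters was 1.11e-03 for Itgax and 3.33e-03 for Siglech in replicate 1. In replicate 2 no base at either promoter was listed under 0.05, and at Clec9a no base was listed in either library. Among all protein-coding genes without a strict promoter peak, 13.2% in replicate 1 and 13.9% in replicate 2 had a base under 0.05. Itgax and Siglech belonged to these genes in replicate 1, and Clec9a did not in either library.

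The open and the closed promoters of the 8 genes differed in CpG content, which the choice of genes did not use. Observed over expected CpG in the 1000 bases around the start site, taking the start site with the highest value, was 0.875 at Zbtb46, 0.854 at Tcf4, 0.674 at Id2, 0.997 at Nfil3 and 0.719 at Flt3. It was 0.239 at Itgax, 0.142 at Siglech and 0.133 at Clec9a, and the open and closed members did not overlap. Over all protein-coding genes, the share with a promoter peak in both libraries was 81.4% at a CpG value of 0.6 and above, where all 5 open members lie. It was 11.9% between 0.2 and 0.4, where Itgax lies, and 1.74% below 0.2, where Siglech and Clec9a lie. Each member was thus on the more common side for its CpG class. A low CpG value did not preclude a peak: the plasmacytoid factor gene Spib (0.142) had promoter signals of 4.10 in replicate 1 and 1.80 in replicate 2, and the adult beta globin gene Hbb-bs (0.133) had 6.03 and 2.75. Both were chosen for mention after their values were seen.

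The 100 bases upstream of the most 5′ annotated start site are shown for the 3 closed genes and for the open genes Nfil3 and Flt3. They are printed in the direction of the gene from the GRCm38.p6 reference, which has the mm10 coordinates, with CG pairs in capitals. The reference is the C57BL/6J genome, and CAST/EiJ alleles were not examined. The stretches lie at chr13:52981074-52981173, chr5:147400490-147400589, chr7:128129447-128129546, chr7:55768078-55768177 and chr6:129408762-129408861, in the order printed:
Nfil3: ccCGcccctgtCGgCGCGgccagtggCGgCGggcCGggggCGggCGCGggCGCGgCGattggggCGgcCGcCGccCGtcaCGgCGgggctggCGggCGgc
Flt3: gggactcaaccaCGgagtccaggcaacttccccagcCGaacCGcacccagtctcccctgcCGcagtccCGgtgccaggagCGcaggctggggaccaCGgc
Itgax: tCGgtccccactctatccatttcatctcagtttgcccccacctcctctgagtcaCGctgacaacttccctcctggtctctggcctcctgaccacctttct
Siglech: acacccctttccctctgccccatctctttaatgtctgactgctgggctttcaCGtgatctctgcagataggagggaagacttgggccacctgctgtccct
Clec9a: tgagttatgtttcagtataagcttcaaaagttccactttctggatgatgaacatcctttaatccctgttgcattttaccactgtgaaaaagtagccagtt
They hold 21 CG pairs at Nfil3, 7 at Flt3, 2 at Itgax, 1 at Siglech and 0 at Clec9a. The G and C content was 90.0%, 71.0%, 56.0%, 55.0% and 36.0% in the same order. These 100 bases do not part all open from all closed genes: the same stretch holds 1 CG pair at Id2 (36.0% G and C) and 0 at Tcf4 (35.0%), both open. At Id2 and Tcf4 the strongest promoter peak lay over other start sites than the most 5′ one.

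**Figure D2:**
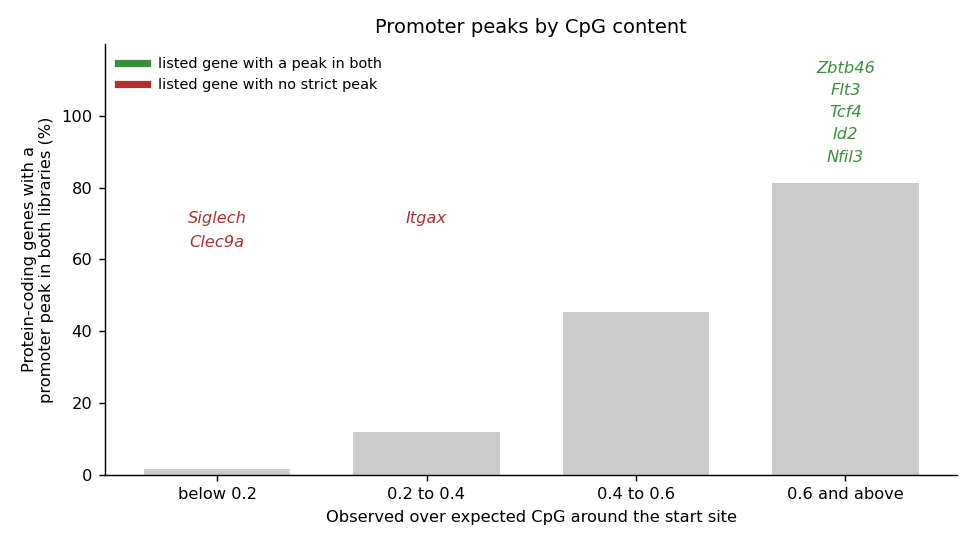
Share of all protein-coding genes with a promoter peak in both libraries (bars, %) by observed over expected CpG around the start site (x axis, 4 bins). The names above the bars place the 8 dendritic cell genes in their bins: the 5 with a promoter peak lie in the highest bin (81.4% of genes with a peak), and Itgax, Siglech and Clec9a in the bins at 11.9% and 1.74%.

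The second question was which sites lay around the genes. Strict peaks of the libraries that shared at least 1 base were joined into 1 site. The 8 windows held 47 sites, of which 21 were called in both libraries, 25 in replicate 1 alone and 1 in replicate 2 alone. Own promoters made up 14 sites, promoters of neighbouring genes 5, and distal sites, with no base within 1000 bases of any start site, 28. Of the promoter sites in the windows, those of neighbours included, 52.6% were called in both libraries, beside 66.9% of all promoter sites. Those called in replicate 1 alone were 42.1%, beside 27.3%. All 11 distal sites of replicate 2 were also called in replicate 1. They were 39.3% of the members' distal sites, beside 34.7% of all distal sites called in both libraries. Distal sites called in replicate 1 alone were 60.7% of the members' distal sites, beside 59.1% of all distal sites in the genome. These 17 sites were weaker, with a median signal of 0.814 in replicate 1 against 2.16 for the 11 shared ones. Of the 17, 4 were in the larger list of replicate 2 and 13 were in neither list.

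A distal site called in both libraries was present at 7 of 8 members (87.5%), beside 9185 of all protein-coding genes (41.9%). Itgax was the exception. The share of all genes was 55.3% among those with a promoter peak in both libraries, where 5 of 5 members had such a site. It was 27.8% among those without, where 2 of 3 members had one. Among genes whose length lies within the range of the members it was 43.7%. That range holds 18802 of the 21938 genes, so this share could hardly differ from that of all genes. It is therefore no match for length. Per 100 kb of window the median was 1.34 shared distal sites at the members and 0.0 at all protein-coding genes. Id2 had the highest density, 3.16 per 100 kb, and Tcf4 the lowest of those with a site, 0.493. These shares describe a hand-picked list of 8 and carry no test. A high share was not particular to the members. In the marker lists of other cell types used below it ran from 25.0% (macrophages) to 87.5% (B cells). In the 4 other dendritic lists it ran from 33.3% (type 1) to 75.0% (the common list and type 2). Of the 28 distal sites 17 lay in introns, 4 touched exons and 7 lay between genes, and the 11 shared ones were 4, 2 and 5 in the same order.

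**Figure D3:**
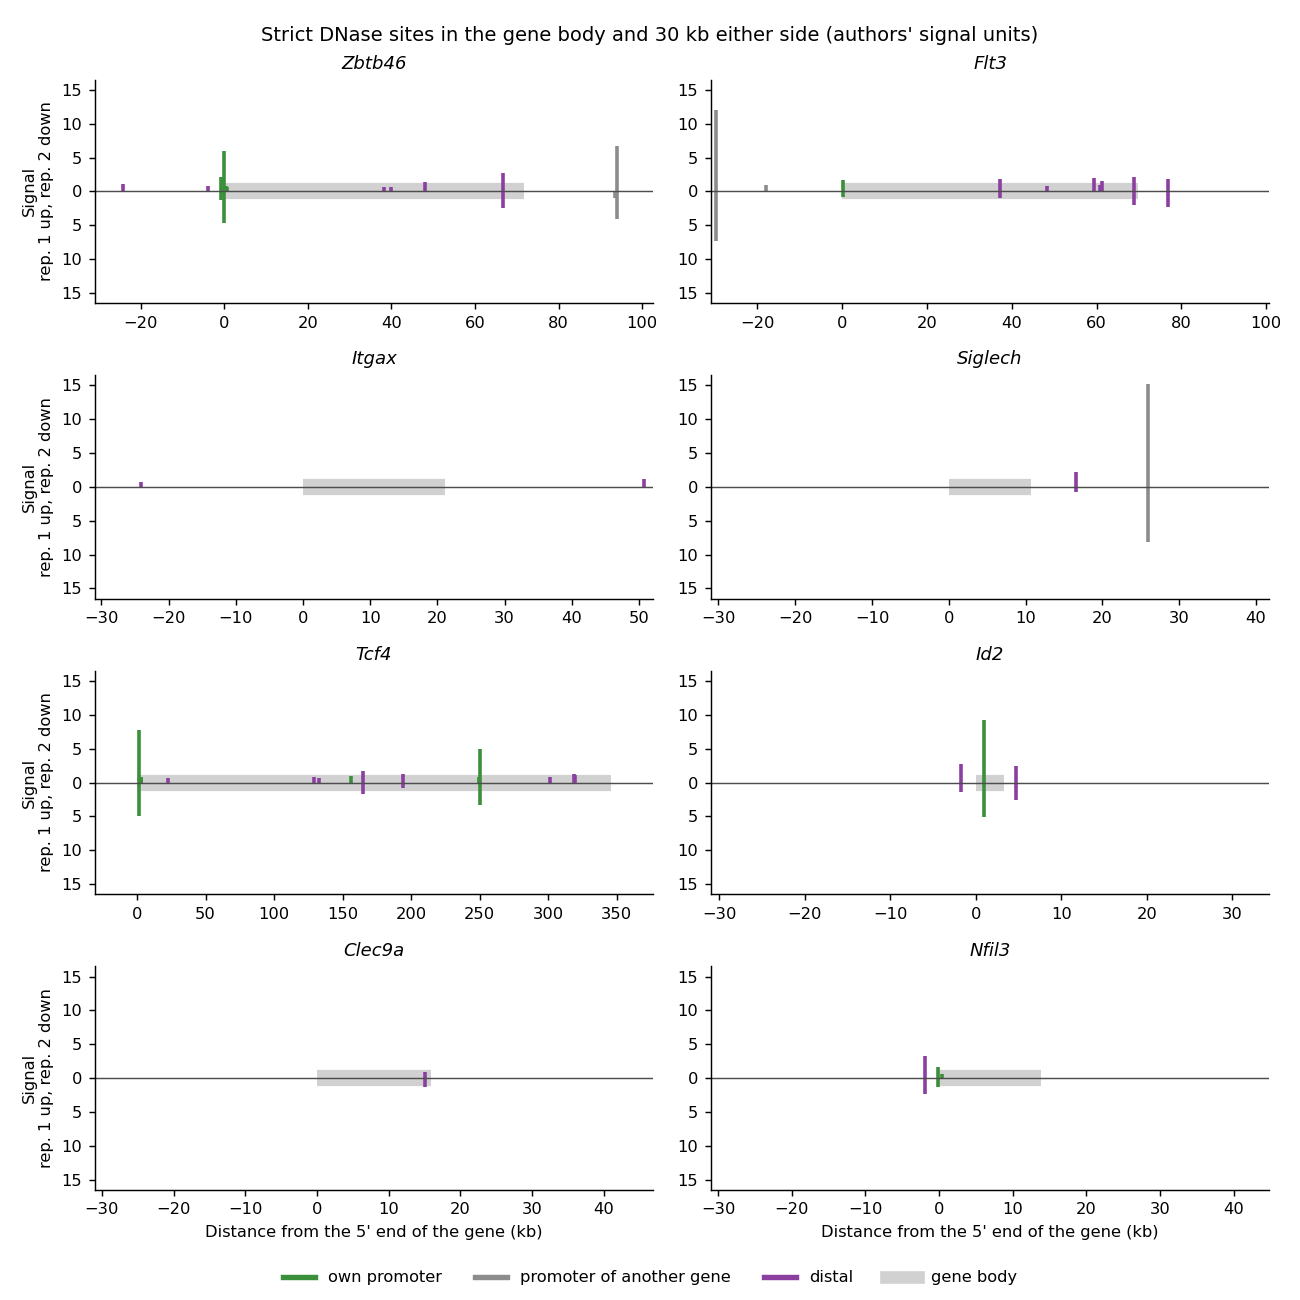
Strict sites in the gene body and 30 kb either side of each gene, by distance from the 5′ end in the direction of the gene (x axis, kb). Lines run up for the signal in replicate 1 and down for that in replicate 2 (y axis, authors' units), coloured by class, and the grey block is the gene body. The tallest upward lines in the windows of Flt3, Siglech and Zbtb46 belong to promoters of other genes, and Itgax has no line running down.

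Flt3, the cytokine receptor, had 7 distal sites, 3 of them called in both libraries. The site at chr5:147323601-147323780, beyond the 3′ end of the gene, had 1.89 in replicate 1 and 2.34 in replicate 2 (2.12 ± 0.321, SD, n = 2). The intronic site at chr5:147331661-147331820 had 2.16 in replicate 1 and 1.95 in replicate 2 (2.05 ± 0.145, SD, n = 2). The site at chr5:147363121-147363340, which touches an exon, had 1.91 in replicate 1 and 0.903 in replicate 2 (1.40 ± 0.709, SD, n = 2). All 3 had a higher mean than the promoter of Flt3 itself. A further exon-touching site at chr5:147341101-147341320 was called in replicate 1 alone with 2.01 and stood in the larger list of replicate 2 with 0.854. The other 3 distal sites, in replicate 1 alone, lay between 0.814 and 1.53. The strongest peak in the window belonged to the promoter of the neighbour Pan3, at chr5:147430061-147430260, with 12.1 in replicate 1 and 7.33 in replicate 2. Its nearer edge lay 229 bases inside the 30 kb limit, and the next peak lay 92 bases outside it with 2.38 and 1.58.

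The remaining genes had 1 shared distal site or none. At Zbtb46 an intronic site at chr2:181392681-181392880 had 2.69 in replicate 1 and 2.39 in replicate 2 (2.54 ± 0.214, SD, n = 2), and 5 others were called in replicate 1 alone, between 0.588 and 1.45. A promoter shared by the neighbours Arfrp1 and Zgpat, at chr2:181365281-181365520, had 6.76 in replicate 1 and 4.10 in replicate 2, and the 1 site called in replicate 2 alone, with 0.984, lay beside it. At Siglech a site between genes, at chr7:55784601-55784820, had 2.22 in replicate 1 and 0.805 in replicate 2 (1.51 ± 1.00, SD, n = 2), while the promoter of the neighbour Tubgcp5 had 15.2 and 8.07. At Clec9a the only strict site in the window touched an exon near the 3′ end, at chr6:129423761-129424000. It had 0.906 in replicate 1 and 1.28 in replicate 2 (1.09 ± 0.262, SD, n = 2) and was the distal site most in favour of replicate 2. At Itgax both sites were distal and called in replicate 1 alone. The site at chr7:128105468-128105521, with 0.680, lay in introns of Itgam and Gm49368. The site at chr7:128180181-128180380, with 1.24, lay in an intron of Itgad, ended 277 bases inside the 30 kb limit and stood in the larger list of replicate 2 with 0.691. Itgam and Itgad are neighbouring integrin genes, so neither site touched Itgax itself. The larger lists added 25 peaks that touched no strict site in these windows, with signals between 0.350 and 0.713, and 1 of them, beside the promoter of Nfil3, was in both libraries.

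The strongest distal site of 5 genes is printed to show what its footprints cover. The sites of Zbtb46, Flt3, Id2 and Nfil3 hold the core of the CTCF motif, and that of Siglech does not. CTCF is the zinc finger protein that anchors chromatin loops. Sequences run in the direction of the gene, which is the minus strand except at Siglech, over the whole sites given above, and capitals mark bases in a footprint of either library:
Zbtb46 distal: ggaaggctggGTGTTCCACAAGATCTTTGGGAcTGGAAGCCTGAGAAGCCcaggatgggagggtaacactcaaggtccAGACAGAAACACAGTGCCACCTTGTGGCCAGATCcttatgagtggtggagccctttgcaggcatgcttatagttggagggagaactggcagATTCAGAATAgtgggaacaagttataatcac
Flt3 distal: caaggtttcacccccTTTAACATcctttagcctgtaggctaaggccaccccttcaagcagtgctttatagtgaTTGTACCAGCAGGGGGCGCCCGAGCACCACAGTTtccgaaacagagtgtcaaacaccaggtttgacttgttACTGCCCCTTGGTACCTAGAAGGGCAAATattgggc
Id2 distal: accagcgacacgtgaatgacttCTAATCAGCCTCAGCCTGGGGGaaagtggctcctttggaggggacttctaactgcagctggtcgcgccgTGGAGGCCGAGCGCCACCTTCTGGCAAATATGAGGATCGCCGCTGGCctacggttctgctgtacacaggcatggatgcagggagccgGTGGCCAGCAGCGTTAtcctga
Nfil3 distal: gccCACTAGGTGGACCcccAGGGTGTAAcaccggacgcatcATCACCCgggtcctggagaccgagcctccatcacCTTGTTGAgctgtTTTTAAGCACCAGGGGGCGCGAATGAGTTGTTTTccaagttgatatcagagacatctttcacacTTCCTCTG
Siglech distal: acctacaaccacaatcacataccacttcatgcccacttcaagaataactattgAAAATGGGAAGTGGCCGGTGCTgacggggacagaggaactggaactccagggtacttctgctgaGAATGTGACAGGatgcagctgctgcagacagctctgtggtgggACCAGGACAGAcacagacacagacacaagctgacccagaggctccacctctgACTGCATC
At the first 4 sites all 11 bases of the CTCF core lay in footprints, at positions 94 to 104, 80 to 90, 104 to 114 and 96 to 106 of the printed sequences. At the Zbtb46, Flt3, Id2 and Nfil3 sites 51, 41, 63 and 40 bases were in footprints of both libraries. At the Siglech site, footprints covered 42 bases in replicate 1 and 11 in replicate 2, and none in both. Shared footprint bases were not confined to sites with the core: of the 4 shared distal sites without it, 3 had such bases, 38 of them at Clec9a.

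The CTCF core was searched for after these sequences had been seen, on both strands, in the 200 bases centred on each site. It was present at 7 of the 11 distal sites called in both libraries (63.6%), beside 35.8% of all such sites. The 7 are the intronic site of Zbtb46, the first 2 sites of Flt3, the 2 shared sites of Tcf4, the downstream site of Id2 and the upstream site of Nfil3. Those of Zbtb46, Id2 and Nfil3 and the first of Flt3 are printed above and prompted the search. The share is therefore not independent of the choice of motif. None of the 17 distal sites called in replicate 1 alone had the core (16.2% of all such sites), and none of the 19 promoter sites (5.82%). Over all 28 distal sites the share was 25.0%, beside 22.4% of all distal sites. A match describes letters and not a bound protein.

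The third question was how the libraries compared at the sites called in both. Their signals can be set against each other only if they share a scale, which no label or file states. At the 21 member sites the log2 signal ratio, replicate 1 over replicate 2, had a median of 0.58, beside 0.58 at all 25244 shared sites. Replicate 1 was higher at 17 of 21 member sites and at 88.6% of all. The 10 promoter sites in the windows had a median of 0.72, beside 0.65 for all promoter sites. Replicate 1 was higher at 10 of 10, beside 94.9% of all promoter sites. Of the 10, 3 were promoters of neighbouring genes, at 0.72, 0.72 and 0.91. The 7 own-promoter sites ran from 0.32 at Nfil3 to 0.89 at Flt3, with 0.64 at the 5′ site of Tcf4 as the middle value. Distal sites had 0.17 (11 sites), beside 0.37 for all. In the larger lists this order turned, with 0.58 at 15 distal sites of the members, beside 0.41 for all, an alternative added after the data were seen. Split by the CTCF core, the distal sites differed in median but overlapped in range. The 7 with it had a median of 0.14 and ran from -0.31 at Flt3 to 0.58 at Tcf4, beside 0.16 for all such sites. The 4 without it were at 1.47 for Siglech, 1.08 for Flt3, 0.99 for Id2 and -0.49 for Clec9a, beside a median of 0.56 for all such sites. Among all shared distal sites of the genome, too, the median was lower with the core than without it.

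**Figure D4:**
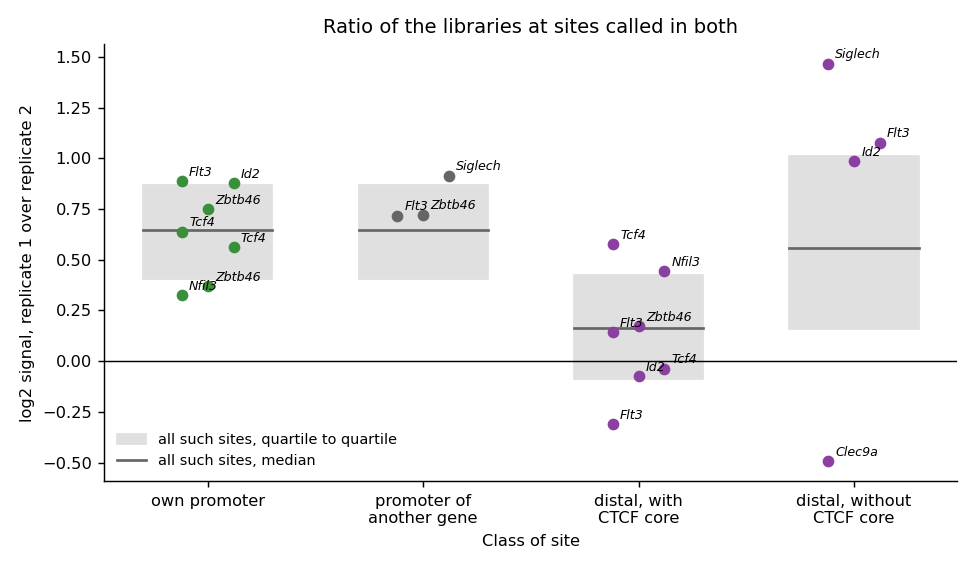
Log2 ratio of signal, replicate 1 over replicate 2 (y axis), at each member site called in both libraries, by class (x axis). Grey blocks run from the lower to the upper quartile of all such sites and the line in each is their median, with all promoter sites of the genome behind both promoter classes. The member sites with a CTCF core lie between -0.31 and 0.58, and those without between -0.49 and 1.47.

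Footprints gave a finer view of the same sites. The 8 windows held 165 footprints in replicate 1 and 113 in replicate 2, of which 122 and 76 lay in strict peaks of their library. Another 24 and 25 lay in peaks of the larger list alone, and 19 and 12 in no peak. Per strict distal peak the members had 2.43 footprints in replicate 1 and 3.18 in replicate 2, beside 2.48 in each library for all distal peaks. Per promoter peak, those of neighbouring genes included, the windows had 3.00 in replicate 1 and 3.42 in replicate 2, beside 3.29 and 3.36 for all. Of the 165 footprints of replicate 1, 68 touched one of replicate 2, and of the 113 of replicate 2, 72 touched one of replicate 1. The share over all footprints of the genome is not given, so these counts describe the windows alone. The window of Flt3 had the most in replicate 1, 42, with 24 in replicate 2. That of Zbtb46 had the most in replicate 2, 27, with 32 in replicate 1. Some of these lay at promoters of other genes: 11 in replicate 1 and 7 in replicate 2 for Flt3, and 8 and 7 for Zbtb46. Tcf4 had 34 and 19 with 0 at such promoters, so the order rests in part on neighbours. The exon site of Clec9a held 6 footprints in each library although its signal was low, and 4 of the 6 in its window in replicate 1 touched one of replicate 2.

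**Figure D5:**
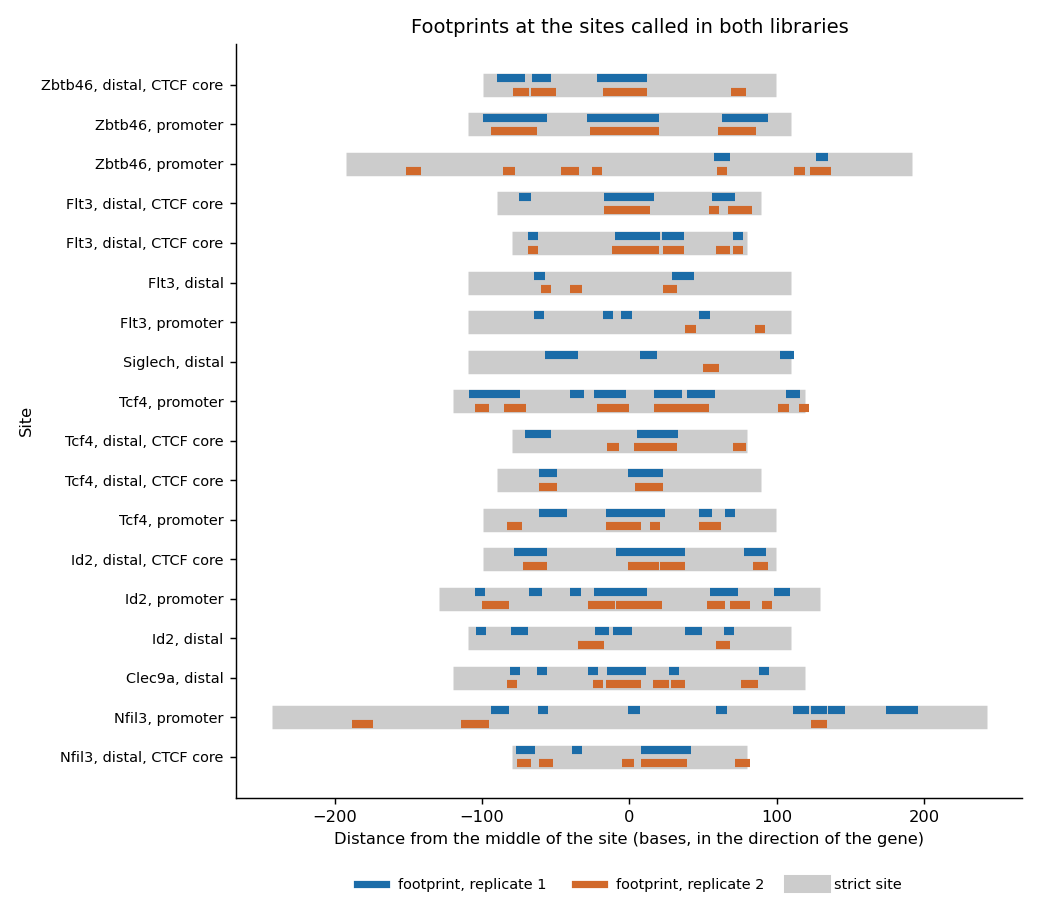
Footprints at the 18 own-promoter and distal sites called in both libraries, by distance from the middle of the site in the direction of the gene (x axis, bases). Grey bars are the sites, with footprints of replicate 1 in the upper row and of replicate 2 in the lower row. Footprints of both libraries share bases at 16 of the 18 sites, with or without a CTCF core. They share none at the promoter of Flt3 and at the distal site of Siglech. The share over all sites called in both libraries is not given, so the count describes these sites alone.

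Other motifs were counted in the same 200-base windows, on both strands. The letters were PU.1 GAGGAAG, ETS CCGGAAG, IRF GAAANNGAA, ETS-IRF composite GGAANNGAA, the E-box CAGCTG, the E-box CAGGTG, the E-box CATCTG, RUNX TGTGGTT, AP-1 TGANTCA and CRE TGACGTCA. They also included NFIL3 TTANGTAA, C/EBP TTGCGCAA, the letters AGATAA for GATA factors, the GC box GGGCGG, NFY CCAAT, EBF CCCNNGGG and a short CTCF form CCANNAGG, which can overlap the CTCF core, as the IRF letters can overlap the composite. GC boxes were at 11 of 19 promoter sites (57.9%), beside 49.6% of all promoter sites. PU.1, the myeloid and B cell ETS factor, had a match at 4 of 28 distal sites (14.3%, beside 14.0%). The letters of EBF, a B cell factor, were at 7 of 28 distal sites (25.0%, beside 9.57%), among them an intronic site and the exon-touching site of Zbtb46, 2 sites of Flt3 and the upstream site of Nfil3. Matches to IRF and AP-1 were at 0 of 28 distal sites, beside 5.85% and 6.75% of all. GATA letters were at 1 of 28 (3.57%, beside 11.4%), and the E-box CATCTG at 2 (7.14%, beside 18.9%). The NFIL3 letters matched at 1 of 19 promoter sites (beside 0.644% of all), the small intronic site of the Nfil3 gene itself, which was called in replicate 1 alone. With counts this small the shares carry no test.

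Other genes listed for the dendritic lineage, in 4 lists of 12, were examined in the same way. In whole spleen their promoter peaks cannot be assigned to dendritic cells. Promoter peaks in both libraries were at 10 of 12 genes common to dendritic cells (83.3%), 8 of 12 of type 1 cells (66.7%), and 7 of 12 each of type 2 and plasmacytoid cells (58.3%), beside 51.1% of all genes. In the common list, mean signals were highest at Relb, an NF-kB subunit (9.05 ± 2.71, SD, n = 2 here and for the genes below), Flt3l, the ligand of Flt3 (7.25 ± 1.97), and Ikzf1, which encodes Ikaros (5.51 ± 1.83). Bcl6 had 3.92 ± 1.88, Spi1, which encodes PU.1, 3.01 ± 1.35, and Cd83, a maturation marker, 2.43 ± 0.732. Kit had 1.43 ± 0.213, Btla 1.40 ± 0.656, Fscn1 1.37 ± 0.0889 and Dpp4 1.35 ± 0.223, while Ccr7 and Csf2rb were called in replicate 1 alone. Flt3l, the ligand gene, thus had the higher promoter signal of the receptor and ligand pair, with 8.64 in replicate 1 and 5.86 in replicate 2. Start sites of other genes near the promoters of the listed genes are not given here. A peak at a listed promoter may therefore belong to a neighbour.

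In the type 1 list, Snx22 had 12.8 ± 5.28, Cd24a 11.5 ± 2.74 and Irf8, the factor that sets the type 1 fate, 4.91 ± 2.01. Naaa had 4.32 ± 2.15, Ly75, the endocytic receptor DEC-205, 3.73 ± 1.25, and Wdfy4, needed for cross-presentation, 2.05 ± 1.66. Cadm1 had 1.75 ± 0.594 and Tlr3, a sensor of double-stranded RNA, 0.696 ± 0.167. The chemokine receptor gene Xcr1, the factor gene Batf3, Itgae and Cd8a had no strict promoter peak in either library. In the type 2 list, Notch2 had 11.6 ± 3.88, Irf2 6.86 ± 3.84, Klf4 4.55 ± 1.63 and Irf4 3.03 ± 0.914. Zeb2 had 2.52 ± 0.728 and Sirpa, an inhibitory receptor, 1.11 ± 0.106, and Relb is also on this list. Clec4a4, Clec10a, Cd209a, Esam and Cd4 had none. In the plasmacytoid list, Bst2 had 5.18 ± 2.33, Bcl11a 2.99 ± 1.26, Spib 2.95 ± 1.63 and Ccr9 2.61 ± 0.625. Irf7, the interferon regulator, had 2.59 ± 0.776, Pld4 2.20 ± 1.26 and Runx2 0.975 ± 0.0334. Tlr9, Pacsin1 and Ly6d were called in replicate 1 alone, and Tlr7 and Cox6a2 in neither.

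Many of these genes are active in other spleen cells too, and marker lists of 8 genes each give the setting. The share of all protein-coding genes with a promoter peak in both libraries was 51.1%. Such peaks were at 7 red cell precursor genes (87.5%, highest at Tfrc, 15.9 ± 6.91), 6 B cell genes (75.0%, Pax5, 6.01 ± 2.94) and 3 T cell genes (37.5%, Lck, 5.92 ± 0.447). The highest gene does not stand for its list: the median of the T cell list was 0.499 in replicate 1 and 0.435 in replicate 2. They were at 4 stem and progenitor genes (Meis1, 2.30 ± 1.23), 3 stromal and endothelial genes (Col1a1, 1.87 ± 0.234) and 1 macrophage gene (Mertk, 0.744 ± 0.0867). Of the natural killer and innate lymphoid genes none was called in both, and the highest, Gata3, had 0.915 in replicate 1 and no peak in replicate 2. Kit is on the progenitor list as well as the common dendritic list, and Cd4 and Cd8a are on the T cell list as well as dendritic lists. Which cells gave the signal at the open promoters was not tested.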

How the data were processed

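DNase-seq of spleen was analysed in 2 libraries of 1 group. The authors aligned the reads to mm10, per the labels; no label or file used here names the aligner or the callers of peaks and footprints. Per the file headers and descriptions, each library had its own peak lists, footprints and false discovery rates, and replicates were not pooled. The deposited peak signal is the authors' value, on a scale that is not stated. The deposited false discovery rates, a q-value type of p-value unit, list only runs of bases under 0.05. The deposited footprint score is 0.01 throughout, so footprints were used by position. Depth is unknown.

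From these files, peaks were assigned to genes with Python 3.11.15, NumPy 2.4.6, pandas 2.3.3 and GENCODE M21, and plotted with matplotlib 3.10.9. A promoter reached 1000 bases either side of a start site and a window 30 kb beyond the gene body. Of the strict peaks, 98.9% in replicate 1 and 98.609% in replicate 2 touched a peak of the larger list. A percentile ranks a peak among the strict peaks, or a promoter among the peaked promoters, of its library. Counts are set beside those of all protein-coding genes or sites, with no test, since 1 group gives no contrast. Alternatives were the larger list, the strongest 50% of peaks, 28837 peaks per library, each library alone, promoters of 500 and 2000 bases, flanks of 10 and 0 kb and a 50% overlap. On simulated data, 841 of 841 shared sites were found, and all 17 motifs gave the matches of a plain scan.

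The members and lists were chosen with earlier results of these data known. By rule, the text names every member with its own-promoter sites and its strongest distal sites, and from the other dendritic cell lists each gene with a promoter peak in both libraries. At Zbtb46, Flt3 and Siglech the strongest site was a neighbour's promoter, and at Id2 it was its own promoter. For these genes the strongest distal site was printed instead. The shared distal site of Clec9a, which lacks the CTCF core, was not printed. Printed sequence comes from the reference, with untranslated exon bases left out, and none is printed for Tcf4.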

Additional observations from a re-analysis of the deposited data

How the results depend on the processing

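Of 30 alternatives, 22 were labelled the same, 6 moved and 2 reversed. A count was labelled the same within a ratio of 1.5, so its value could still change. For the ratio of the libraries, the alternatives labelled the same kept the sign of the difference and not its size. Keeping the strongest 50% of strict peaks left 3 members with a promoter peak in both libraries, 4 with a shared distal site, and 5 shared distal sites, against 5, 7 and 11 with all strict peaks. Within the gene body alone, a flank of 0 kb, 4 members had a shared distal site and there were 6 such sites. Siglech, Id2 and Nfil3 had their shared distal sites in the flanks alone. The share of all protein-coding genes is not given for the alternatives, so these counts have no background beside them. Using 1 library in place of both, the count of members with a promoter peak ran from 5 to 5, of members with a distal site from 7 to 8, and of distal sites from 11 to 28, the highest in replicate 1 alone. The larger list gave 5, 8 and 15, with Itgax as the added gene, and equal numbers of peaks gave 5, 6 and 10, without Clec9a. At member sites the log2 signal ratio, replicate 1 over replicate 2, had a median 0.000553 above that of all shared sites. The difference was -0.20 at distal sites alone and -2.06 percentile points when within-library ranks replaced the signals. At distal sites of the larger lists, an alternative added after seeing the data, it was 0.17. The sign therefore depended on the class of site, the peak list and the scale, and the cause was not tested. No paired analysis was possible because the series holds 1 group. Footprints in strict peaks over both libraries numbered 198, and between 162 and 247 under the alternatives. Unknown depth leaves weak sites called in 1 library undecided.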
